A study of Mus musculus with 12 samples.

Results

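The expression of 39 genes of the interferon response and of antigen processing was followed in hepatocytes of mice given carbon tetrachloride (CCl4), a liver toxicant, or oil. The 39 genes were chosen by symbol from the 35709 gene rows of the deposited table, each symbol matched 1 row, and all 39 passed the filter on low values. They comprise 7 genes of the OAS family, 4 of the IFIT family, 4 genes of nucleic acid sensing, 4 transcription factors, 2 genes of the Isg15 system, 5 GTPases, 10 other effectors and 3 genes of antigen processing. The series compared male C57BL/6J mice of 2 genotypes, aged 8 to 10 weeks at injection, with hepatocytes taken 48 h after a single intraperitoneal dose. The 4 groups held 3 libraries each: Alb-R3 with CCl4 at 0.4 mg per g body weight, Alb-Cre with the same CCl4, Alb-R3 with oil, and Alb-Cre with oil. Alb-R3 mice are labelled as lacking the receptor gene Fgfr3 in hepatocytes, and Alb-Cre mice, named for a Cre recombinase driven from the albumin promoter, served as their controls. Olive oil was the vehicle of CCl4 and therefore reached all 4 groups. The labels state neither which exons of Fgfr3 were removed nor whether each library came from its own animal. The p-values below therefore reflect library-to-library spread only, part of which may be technical.

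Interferons are secreted proteins that warn cells of viral nucleic acid. Type I and type III interferons act through their receptors and the kinases Jak1 and Tyk2 on transcription factors that include Stat2 and Irf9, which bind the interferon-stimulated response element in the promoters of responsive genes. The products of those genes sense or degrade foreign RNA, block translation, trap virus particles and cut and carry peptides for presentation by MHC class I. Hepatocytes express the receptors and answer strongly to interferon, and liver macrophages and plasmacytoid dendritic cells are known sources of it.

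The core of that response element, GAAA followed by 2 bases of any kind and a second GAAA, was searched on both strands (its reverse is TTTC, 2 bases and TTTC) in RefSeq promoter windows of 300 bases on GRCm38.p6, from 250 bases before each gene's start to 50 after it. Of the 39 genes 29 had a window, and 14 of these 29 (48.3%) held the core, against 1079 of all 27025 genes with a window (3.99%). A shorter form, which ends in GAA in place of the second GAAA, stood in 55.2% of the 29 and in 9.76% of all genes. Each match to the longer form is also a match to the shorter one, so these 2 shares overlap. A match is a description of letters in the window and not a bound site. The stretches below of 60 bases are shown for the 4 genes with the core that rose after CCl4 in Alb-R3 (Oas1a, Oas1g, Gbp2 and Gbp3), for the most abundant of the 39 (Bst2), for Isg15, and for the near copies Ifit3 and Ifit3b. Capitals mark each match on either strand, and each sequence reads 5′ to 3′ along its gene's strand.
Oas1a: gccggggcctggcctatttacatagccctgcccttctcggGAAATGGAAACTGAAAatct
Oas1g: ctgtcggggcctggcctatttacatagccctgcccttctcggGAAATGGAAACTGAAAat
Gbp2: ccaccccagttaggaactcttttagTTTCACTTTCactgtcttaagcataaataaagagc
Gbp3: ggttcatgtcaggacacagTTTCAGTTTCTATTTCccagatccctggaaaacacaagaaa
Bst2: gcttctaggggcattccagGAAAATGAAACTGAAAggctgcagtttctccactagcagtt
Isg15: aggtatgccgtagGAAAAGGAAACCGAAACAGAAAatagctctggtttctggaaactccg
Ifit3: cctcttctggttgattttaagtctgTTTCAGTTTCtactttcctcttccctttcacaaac
Ifit3b: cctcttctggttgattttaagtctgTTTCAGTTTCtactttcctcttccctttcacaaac

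The Oas1a stretch lies at chr5:120907526-120907585 on the minus strand and the Oas1g stretch at chr5:120887614-120887673 on the same strand. The Gbp2 stretch is chr3:142620579-142620638 and that of Gbp3 chr3:142559980-142560039, both on the plus strand. Bst2 is shown at chr8:71537562-71537621 and Isg15 at chr4:156200850-156200909, both on the minus strand. Ifit3 is shown at chr19:34583382-34583441 and Ifit3b at chr19:34607778-34607837, on the plus strand. The windows of Oas1a and Oas1g shared an unbroken run of 73 bases and those of Ifit3 and Ifit3b one of 169 bases, whereas Gbp2 and Gbp3 shared no run over 9 bases. By role, genes with a window were counted, and a gene with more than 1 window counted if any of them held the core. It was found in 3 of 5 OAS genes, 3 of 4 IFIT genes, 3 of 3 GTPase genes and 2 of 7 other effectors. It was also found in 1 of 4 transcription factors, 1 of 2 genes of nucleic acid sensing, the 1 gene of the Isg15 system and 0 of 3 genes of antigen processing.

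The copies extend into the transcripts. Of the words of 31 bases in Oas1a transcripts 68.8% also occur in another gene, nearly all in Oas1g, and 61.8% of those of Ifit3 occur in Ifit3b. Of the words of Oas1g 54.6% occur in Oas1a, and of those of Ifit3b 54.1% occur in Ifit3. Reads from such stretches can be split between the copies by the authors' counting, so single values of Oas1a, Oas1g, Ifit3 and Ifit3b are uncertain. Psmb9 and Tap1 overlap on chromosome 17, and Mx2 and Oas1b are annotated as polymorphic pseudogenes in GENCODE M21.

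Fgfr3, the gene labelled as deleted, had normalized counts of 478, 372 and 382 in Alb-R3 CCl4 libraries, against 951, 706 and 753 in Alb-Cre CCl4 libraries. After oil it had 523, 651 and 1109 in libraries labelled Alb-R3, against 735, 888 and 988 in Alb-Cre libraries. The library labelled Alb-R3 oil replicate 3 thus had the highest Fgfr3 value of the 12, against its label. The hepatocyte markers Alb, Ttr and Apoa1 were abundant in each library, with the lowest Alb value at 35480 FPKM (fragments scaled to transcript length and library size). The library Alb-R3 CCl4 replicate 1 stood apart, with mitochondrially encoded genes at 32.3% of its normalized counts against 7.22% and 7.85% in its group and 6.22% to 12.8% in the other 9 libraries, and with Alb at 3.19% against 8.14% and 8.58% in its group. Estimated depth was 28000000 to 39600000 reads per library. Responses of the 39 genes to CCl4 in Alb-R3 are therefore given with and without it.

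Expressed per length, the 39 genes spanned more than 3 orders of magnitude over the 12 libraries. Bst2, which encodes tetherin and holds budding virus at the cell surface, averaged 240 ± 44.8 FPKM (SD over 12 libraries) and ranged from 178 to 306 FPKM. Ifi27, a small membrane protein gene, came next at 122 ± 27.9 FPKM, and these ranges overlapped only slightly, between 178 and 193 FPKM. Stat2 at 30.4 ± 15.6 FPKM, Irf7 at 24.9 ± 10.6, Psmb8 at 24.3 ± 8.15, Ifi35 at 22.9 ± 3.77 and Irf1 at 20.1 ± 3.37 FPKM followed, and the ranges of neighbours in this order overlapped. At the low end stood Ifit2 at 0.608 ± 0.526 FPKM, Oas1g at 0.576 ± 0.806, Oas2 at 0.549 ± 1.06 and Oas3 at 0.19 ± 0.299 FPKM, whose ranges overlapped as well. The low genes are known to be strongly inducible. Their SDs were close to or above their means, and the source of this spread was not tested. Oas1g, Oas2 and Oas3 were highest in Alb-R3 CCl4 replicate 1, and Ifit2 in Alb-R3 CCl4 replicate 3.

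**Figure D1:**
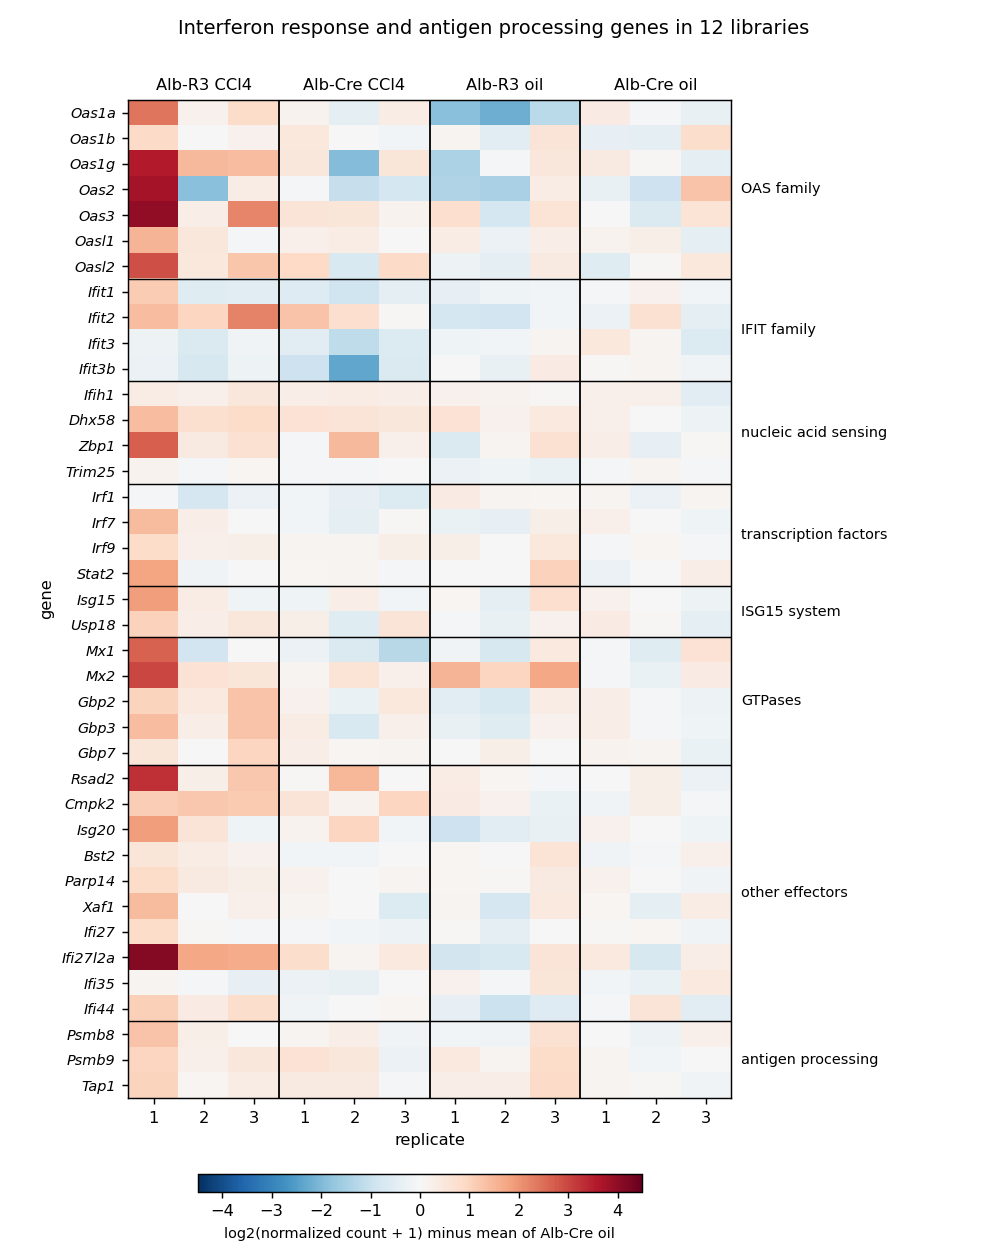
Heat map of log2(normalized count + 1) of the 39 genes (rows, by role) in the 12 libraries (columns, replicates 1 to 3 of Alb-R3 CCl4, Alb-Cre CCl4, Alb-R3 oil and Alb-Cre oil), as the difference from the mean of the 3 Alb-Cre oil libraries. The first column, Alb-R3 CCl4 replicate 1, is the darkest red: it had the highest value of the 12 libraries for 29 of the 39 genes.

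That first library set much of the picture. It was the highest of all 12 libraries for 29 of the 39 genes, while it was the highest for 21.3% of all tested genes. Within its own group it was the highest for 32 of 39 genes (82.1%, against 41% of all tested genes), and its value was a median of 1.73 times the mean of its 2 group mates. That ratio was largest for Oas2 (18.4), Mx1 (8.46), Oas3 (5.73), Rsad2 (5.49) and Ifi27l2a (5.45), and smallest for Ifit2 (0.784). Cmpk2 (0.935), Ifih1 (0.968), Gbp7 (1) and Gbp2 (1.05) were near the level of the mates.

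After CCl4 in Alb-R3 hepatocytes, 8 of the 39 genes rose and 0 fell: Oas1a, Oas1g, Ifit2, Gbp2, Gbp3, Cmpk2, Ifi27l2a and Ifi44. Their rises ran from 2.1-fold for Cmpk2 to 7.53-fold for Oas1a, and they came from the OAS, IFIT and GTPase families and the other effectors. No sensor, transcription factor, Isg15 system gene or antigen processing gene passed in this comparison with all libraries. The share that rose, 20.5% of the 39, stands beside a background of 10.9% of all 20244 tested genes that rose and 6.92% that fell, 17.8% in either direction (limma on log2(normalized count + 1), Benjamini-Hochberg adjusted p under 0.05 over all tested genes). The median log2 fold change of the 39 was 0.54, against 0.0016 over all tested genes, and 33 of 39 were positive. In 14 genes the 3 Alb-R3 CCl4 values lay above the 3 Alb-R3 oil values (background 18.1%) and in 1 gene, Irf1, below them (background 15.5%).

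Without Alb-R3 CCl4 replicate 1 the same comparison gave 5 genes that rose (background 9.63%) and 1 that fell (background 6.05%). Oas1a, Ifit2, Cmpk2, Ifi27l2a and Ifi44 passed again, whereas Oas1g, Gbp2 and Gbp3 did not. Irf1 fell, by 0.69 ± 0.20 on the log2 scale (limma adjusted p = 0.0354). The median log2 fold change of the 39 was then 0.17. Oas1g, Gbp2 and Gbp3 also lost their calls without Alb-R3 oil replicate 1 and without Alb-R3 oil replicate 2, either of which left 5 genes. The background fell as well, to 6.93% higher and 3.54% lower without Alb-R3 oil replicate 1. Without Alb-R3 oil replicate 2 it was 7.44% higher and 3.91% lower. Gbp2 and Gbp3 also lost their calls without Alb-R3 CCl4 replicate 3. The library labelled Alb-R3 oil replicate 3 decided the call of Cmpk2, which was lost when it was left out, and Oas1g without Alb-Cre oil replicate 1 or replicate 2.

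**Figure D2:**
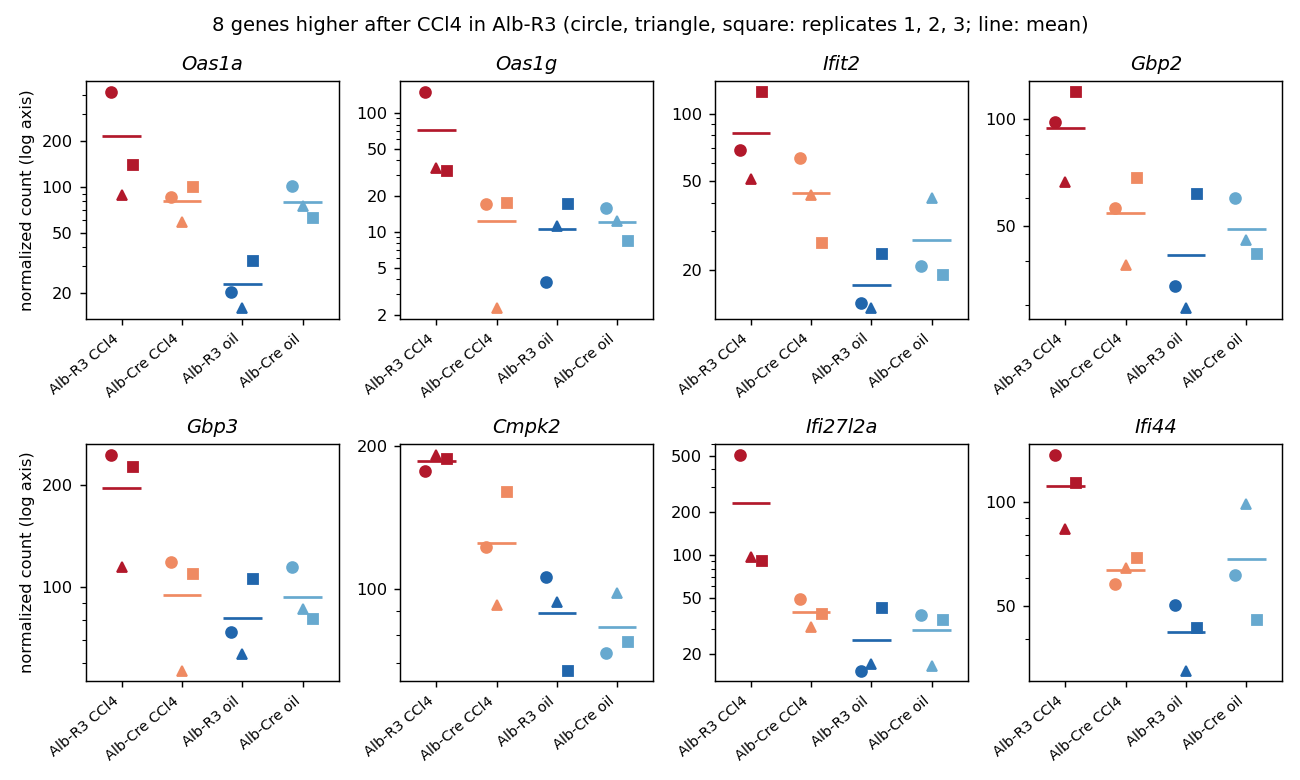
Normalized counts (log axis) of the 8 genes that rose after CCl4 in Alb-R3, by group from left to right Alb-R3 CCl4, Alb-Cre CCl4, Alb-R3 oil and Alb-Cre oil; circles, triangles and squares are replicates 1, 2 and 3, and lines are means of 3. The 3 Alb-R3 CCl4 values of each gene lie above its 3 Alb-R3 oil values, and for Oas1a the Alb-R3 oil values, 16.0 to 32.7, are the lowest of the 4 groups.

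The OAS family encodes synthetases of oligoadenylates, which switch on an RNA-degrading enzyme. Oas1a had normalized counts of 419, 88.1 and 138 in Alb-R3 CCl4 libraries, 85.8, 58.3 and 98.9 in Alb-Cre CCl4 libraries, 20.3, 16.0 and 32.7 in Alb-R3 oil libraries and 102, 74.3 and 62.0 in Alb-Cre oil libraries. The Alb-R3 oil libraries were low and did not overlap with any other group, and Alb-R3 CCl4 replicate 2 was within the range of the Alb-Cre libraries. Its log2 fold change with CCl4 in Alb-R3 was 2.91 ± 0.48 (limma adjusted p = 0.00134), and 2.27 ± 0.38 without Alb-R3 CCl4 replicate 1 (adjusted p = 0.00141). Oas1g, its neighbour and near copy, had 151, 34.2 and 32.4 in Alb-R3 CCl4 libraries, 17.2, 2.29 and 17.4 in Alb-Cre CCl4 libraries, 3.79, 11.2 and 17.0 in Alb-R3 oil libraries and 15.8, 12.2 and 8.35 in Alb-Cre oil libraries. Each Alb-R3 CCl4 library was above each of the other 9 libraries for Oas1g. The log2 fold change with CCl4 in Alb-R3 was 2.47 ± 0.77 (limma adjusted p = 0.0428) and 1.75 ± 0.75 without replicate 1 (adjusted p = 0.138).

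The other OAS genes did not pass. Oasl2 had a log2 fold change of 1.64 ± 0.59 with CCl4 in Alb-R3 (limma adjusted p = 0.0739), Oas3 of 1.99 ± 0.78 (0.0992) and Oas2 of 1.57 ± 1.08 (0.358). In Alb-R3 CCl4 replicate 1 Oas2 had 378 normalized counts, against 6.59 and 34.5 in its group mates, 12.6 to 25.3 in Alb-Cre CCl4 libraries, 9.07 to 34.3 in Alb-R3 oil libraries and 13.6 to 66.8 in Alb-Cre oil libraries. Without that library the log2 fold change of Oas2 was 0.07 ± 0.79. Oasl1, which in mice restrains translation of Irf7, had 0.54 ± 0.34, and Oas1b, whose product is truncated in common laboratory strains, 0.28 ± 0.42. None of these 5 passed without Alb-R3 CCl4 replicate 1 either, where Oasl2 had 0.96 ± 0.52, Oas3 1.08 ± 0.68, Oasl1 0.10 ± 0.26 and Oas1b 0.03 ± 0.45.

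IFIT proteins bind RNA with foreign ends and hold back its translation. Ifit2 had normalized counts of 69.1, 51.3 and 125 in Alb-R3 CCl4 libraries, 63.2, 43.5 and 26.6 in Alb-Cre CCl4 libraries, 14.2, 13.6 and 23.6 in Alb-R3 oil libraries and 21, 41.8 and 19.1 in Alb-Cre oil libraries. Its highest value was in Alb-R3 CCl4 replicate 3, and the Alb-R3 CCl4 libraries overlapped with those of Alb-Cre CCl4 but not with those given oil. The log2 fold change in Alb-R3 was 2.13 ± 0.46 (limma adjusted p = 0.00667) and 2.20 ± 0.51 without Alb-R3 CCl4 replicate 1 (adjusted p = 0.011). Its cluster neighbours on chromosome 19 did not pass: Ifit1 had 0.27 ± 0.36, Ifit3 -0.28 ± 0.27 and Ifit3b -0.40 ± 0.41. All 3 were negative without Alb-R3 CCl4 replicate 1, with -0.28 ± 0.22 for Ifit1, whose sign turned, -0.34 ± 0.30 for Ifit3 and -0.47 ± 0.46 for Ifit3b. Ifit3b had 50.5, 36.8 and 52.2 in Alb-R3 CCl4 libraries, 31.1, 11.1 and 38.4 in Alb-Cre CCl4 libraries, 59.5, 48.1 and 79.5 in Alb-R3 oil libraries and 63.1, 65.6 and 54.2 in Alb-Cre oil libraries. Its Alb-Cre CCl4 values all lay below the Alb-Cre oil values, and its log2 fold changes were negative in both genotypes, while those of Ifit2 were positive.

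Guanylate-binding proteins are GTPases that attack membranes around intracellular pathogens. Gbp2 had normalized counts of 98.0, 66.7 and 119 in Alb-R3 CCl4 libraries, 56.3, 38.9 and 68.1 in Alb-Cre CCl4 libraries, 33.9, 29.5 and 61.5 in Alb-R3 oil libraries and 59.8, 45.7 and 41.8 in Alb-Cre oil libraries. Gbp3 had 247, 115 and 227 in Alb-R3 CCl4 libraries, 119, 56.9 and 110 in Alb-Cre CCl4 libraries, 73.8, 63.6 and 106 in Alb-R3 oil libraries and 115, 86.4 and 80.6 in Alb-Cre oil libraries. In both genes the library labelled Alb-R3 oil replicate 3 was the highest of its group and came close to the lowest Alb-R3 CCl4 library. The log2 fold change with CCl4 in Alb-R3 was 1.20 ± 0.36 for Gbp2 (limma adjusted p = 0.0346) and 1.22 ± 0.36 for Gbp3 (0.0317). It was 1.16 ± 0.40 and 1.02 ± 0.38 without Alb-R3 CCl4 replicate 1 (adjusted p = 0.0681 and 0.0902). Gbp7, the third of the cluster, had 0.40 ± 0.23, and 0.37 ± 0.26 without that library. Of the Mx genes, which encode dynamin-like GTPases and are defective in many laboratory strains, Mx1 had 0.76 ± 0.72 and Mx2 -0.02 ± 0.51 with all libraries. Without Alb-R3 CCl4 replicate 1 they had -0.27 ± 0.51 and -0.82 ± 0.28, and neither passed.

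Among the other effectors, Ifi27l2a, a short membrane protein gene of the Ifi27 family, had 509, 96.0 and 90.6 normalized counts in Alb-R3 CCl4 libraries, 48.6, 30.9 and 38.4 in Alb-Cre CCl4 libraries, 15.3, 17.0 and 42.6 in Alb-R3 oil libraries and 37.8, 16.5 and 34.6 in Alb-Cre oil libraries. All 3 Alb-R3 CCl4 libraries were above the other 9. The log2 fold change in Alb-R3 was 2.82 ± 0.61 (limma adjusted p = 0.00712) and 2.01 ± 0.48 without Alb-R3 CCl4 replicate 1 (adjusted p = 0.0129). Cmpk2, a mitochondrial nucleotide kinase gene next to Rsad2, had 177, 192 and 188 in Alb-R3 CCl4 libraries, 122, 92.6 and 160 in Alb-Cre CCl4 libraries, 106, 94.1 and 67.4 in Alb-R3 oil libraries and 73.5, 98.2 and 77.6 in Alb-Cre oil libraries. The Alb-R3 CCl4 libraries agreed closely, stood above the other 9, and replicate 1 was the lowest of them. Its log2 fold change was 1.07 ± 0.26 (limma adjusted p = 0.0121) and 1.11 ± 0.29 without that library (adjusted p = 0.0194). Ifi44, a microtubule-associated antiviral gene, had 137, 83.6 and 113 in Alb-R3 CCl4 libraries, 57.6, 64.2 and 68.8 in Alb-Cre CCl4 libraries, 50.1, 32.4 and 43.2 in Alb-R3 oil libraries and 61.2, 98.4 and 45.5 in Alb-Cre oil libraries. Its Alb-R3 groups did not overlap, while Alb-Cre oil replicate 2 reached into the range of Alb-R3 CCl4. The log2 fold change was 1.38 ± 0.32 (limma adjusted p = 0.0108) and 1.22 ± 0.35 without replicate 1 (adjusted p = 0.0313).

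Isg20, an exonuclease gene, had 204, 82.8 and 48.1 normalized counts in Alb-R3 CCl4 libraries, 61.2, 109 and 50.7 in Alb-Cre CCl4 libraries, 28.4, 39.7 and 43.8 in Alb-R3 oil libraries and 63.0, 56.4 and 47.7 in Alb-Cre oil libraries. Its Alb-R3 groups did not overlap, but its log2 fold change of 1.33 ± 0.46 did not pass (limma adjusted p = 0.0624), and it was 0.77 ± 0.38 without Alb-R3 CCl4 replicate 1. Rsad2, which encodes viperin, a maker of a chain-terminating nucleotide, had 1.48 ± 0.59 (0.104) with all libraries and 0.64 ± 0.41 without Alb-R3 CCl4 replicate 1, where it stood at 1295 normalized counts against 161 and 311 in its mates. Unlike its neighbour Cmpk2, Rsad2 had overlapping Alb-R3 groups. Bst2 had 6248, 5340 and 4944 in Alb-R3 CCl4 libraries, 3886, 3968 and 4302 in Alb-Cre CCl4 libraries, 4550, 4264 and 6526 in Alb-R3 oil libraries and 3804, 4129 and 4997 in Alb-Cre oil libraries. Its highest value belonged to the library labelled Alb-R3 oil replicate 3, and its log2 fold change with CCl4 in Alb-R3 was 0.13 ± 0.19, and 0.03 ± 0.19 without Alb-R3 CCl4 replicate 1. Ifi27 had 5008, 2938 and 2763 in Alb-R3 CCl4 libraries, 2746, 2625 and 2439 in Alb-Cre CCl4 libraries, 2930, 2103 and 2880 in Alb-R3 oil libraries and 2949, 3058 and 2582 in Alb-Cre oil libraries. Its Alb-R3 groups overlapped, and the log2 fold change with CCl4 was 0.40 ± 0.21, and 0.13 ± 0.17 without Alb-R3 CCl4 replicate 1. Xaf1, Parp14 and Ifi35 had 0.61 ± 0.39, 0.33 ± 0.18 and -0.31 ± 0.22, and none passed. Their values were 0.17 ± 0.35, 0.16 ± 0.17 and -0.43 ± 0.24 without Alb-R3 CCl4 replicate 1.

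With all libraries, none of the sensors or transcription factors passed. In Alb-R3, CCl4 gave Dhx58 and Ifih1, cytoplasmic receptors of viral RNA, log2 fold changes of 0.55 ± 0.21 (limma adjusted p = 0.085) and 0.21 ± 0.18 (0.469). Trim25, a ubiquitin ligase of the same route, had 0.31 ± 0.13 (0.107), and Zbp1, a sensor of left-handed nucleic acid, 1.20 ± 0.55 (0.158). The Alb-R3 CCl4 values of Dhx58, Ifih1 and Trim25 lay above the Alb-R3 oil values, while those of Zbp1 overlapped. Without Alb-R3 CCl4 replicate 1 the values were 0.34 ± 0.19 for Dhx58, 0.23 ± 0.20 for Ifih1, 0.27 ± 0.13 for Trim25 and 0.48 ± 0.43 for Zbp1. Irf7, the factor that amplifies interferon production, had 2601, 1215 and 964 normalized counts in Alb-R3 CCl4 libraries, 896, 747 and 1002 in Alb-Cre CCl4 libraries, 800, 749 and 1163 in Alb-R3 oil libraries and 1149, 955 and 852 in Alb-Cre oil libraries. Stat2 had 4842, 1248 and 1386 in Alb-R3 CCl4 libraries, 1496, 1540 and 1348 in Alb-Cre CCl4 libraries, 1391, 1428 and 2850 in Alb-R3 oil libraries and 1169, 1373 and 1699 in Alb-Cre oil libraries. In both factors Alb-R3 CCl4 replicate 1 was far above the rest, and in Stat2 the library labelled Alb-R3 oil replicate 3 came second. Their log2 fold changes were 0.71 ± 0.30 (limma adjusted p = 0.129) and 0.19 ± 0.42 (0.808). Irf9 had 0.18 ± 0.18 (0.544). Without Alb-R3 CCl4 replicate 1 Irf7 had 0.29 ± 0.21, Stat2 turned to -0.44 ± 0.26 and Irf9 to -0.02 ± 0.16, and none of these passed (limma adjusted p = 0.411, 0.303 and 0.965).

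Irf1, a factor induced mainly by type II interferon, had negative values. It had 755, 479 and 676 normalized counts in Alb-R3 CCl4 libraries, 743, 620 and 526 in Alb-Cre CCl4 libraries, 1056, 872 and 852 in Alb-R3 oil libraries and 891, 682 and 875 in Alb-Cre oil libraries. The Alb-R3 CCl4 libraries were all below the Alb-R3 oil libraries. The log2 fold change was -0.56 ± 0.20 with all libraries, which did not pass (limma adjusted p = 0.0711). Isg15, a ubiquitin-like protein gene, and Usp18, which encodes the protease that removes it, had 0.53 ± 0.43 (0.44) and 0.68 ± 0.30 (0.144), and -0.07 ± 0.30 and 0.47 ± 0.31 without Alb-R3 CCl4 replicate 1.

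No antigen processing gene passed in any of the comparisons with all libraries. Psmb8, an immunoproteasome subunit gene, had 1995, 964 and 799 normalized counts in Alb-R3 CCl4 libraries, 889, 1008 and 721 in Alb-Cre CCl4 libraries, 753, 727 and 1312 in Alb-R3 oil libraries and 805, 698 and 952 in Alb-Cre oil libraries. Replicate 1 of Alb-R3 CCl4 was again the highest, and the groups overlapped. In Alb-R3 the log2 fold change with CCl4 was 0.37 ± 0.31 for Psmb8, 0.12 ± 0.26 for Psmb9, the second immunoproteasome subunit, and -0.02 ± 0.24 for Tap1, a subunit of the peptide transporter. An interval of 2 SE around these values ran from -0.26 to 0.99 for Psmb8, from -0.40 to 0.64 for Psmb9 and from -0.50 to 0.46 for Tap1. Without Alb-R3 CCl4 replicate 1 all 3 were negative, at -0.03 ± 0.25, -0.08 ± 0.26 and -0.29 ± 0.21.

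**Figure D3:**
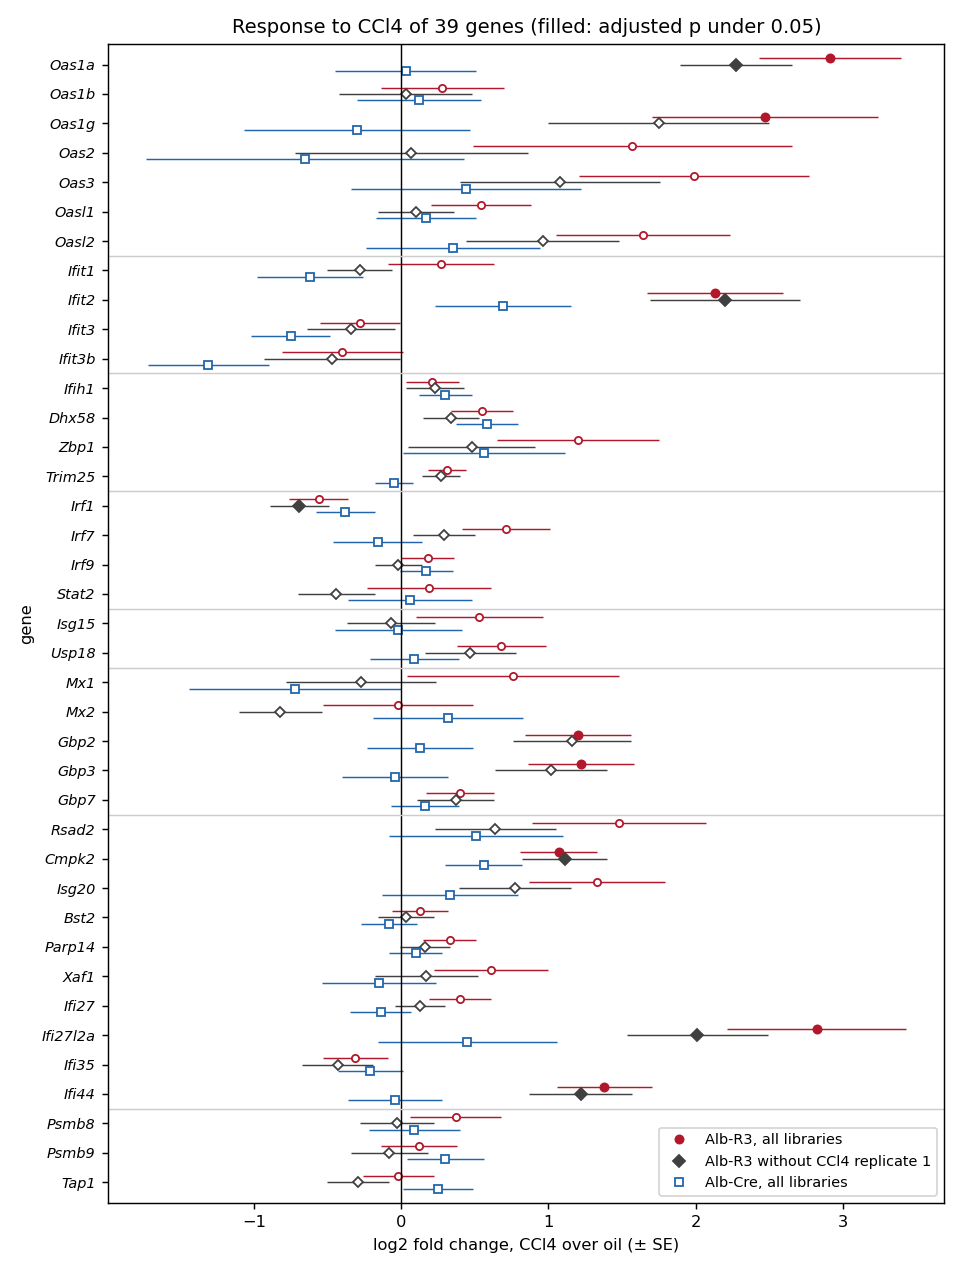
Log2 fold change of CCl4 over oil (x axis, bars are 1 SE) for the 39 genes (rows, by role) in Alb-R3 with all libraries (red circles), in Alb-R3 without CCl4 replicate 1 (grey diamonds) and in Alb-Cre (blue squares); filled symbols passed an adjusted p of 0.05. The red points reach 2.91 for Oas1a, the median is 0.54 over the red points and 0.17 over the grey ones, and no blue point is filled.

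In Alb-Cre hepatocytes 0 of the 39 genes passed with CCl4 (limma; background 3.46% of tested genes higher and 0.988% lower, 4.45% in either direction), and 0 passed without Alb-R3 CCl4 replicate 1 (background 4.75% higher and 2.13% lower). At an unadjusted p under 0.05 there were 2 higher, Dhx58 and Cmpk2, and 2 lower, Ifit3 and Ifit3b, while 17.1% of all tested genes had such a p. Ifit3b had the largest difference, a log2 fold change of -1.31 ± 0.41 (limma adjusted p = 0.102), and Ifit3 had -0.75 ± 0.27 (0.168). Dhx58 had 0.58 ± 0.21 (0.158), close to its 0.55 ± 0.21 in Alb-R3. The median of the 39 was 0.09, against 0.017 over all tested genes. In 3 genes, Ifih1, Dhx58 and Irf9, the CCl4 libraries lay above the oil libraries (background 13.3%), and in 2, Ifit1 and Ifit3b, below them (background 10.4%). The 8 genes that rose in Alb-R3 had smaller log2 fold changes in Alb-Cre: 0.03 ± 0.48 for Oas1a, -0.30 ± 0.77 for Oas1g, 0.69 ± 0.46 for Ifit2, 0.13 ± 0.36 for Gbp2, -0.04 ± 0.36 for Gbp3, 0.56 ± 0.26 for Cmpk2, 0.45 ± 0.61 for Ifi27l2a and -0.04 ± 0.32 for Ifi44. These 8 were picked by their change in Alb-R3, and that choice alone favours larger values there.

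The difference between those responses was tested as the genotype-by-treatment interaction, and 0 of the 39 genes passed. The background was 0% as well: no tested gene passed with limma, and 1516 of 20244 (7.49%) had an unadjusted p under 0.05. Of the 39, 6 had an unadjusted p under 0.05, all with a larger response in Alb-R3: Oas1a, Oas1g, Ifit2, Gbp3, Ifi27l2a and Ifi44. Oas1a had an interaction of 2.89 ± 0.69 on the log2 scale (limma adjusted p = 0.364) and Ifi44 one of 1.42 ± 0.46 (0.479). The median over the 39 was 0.54, and 0.31 without Alb-R3 CCl4 replicate 1, where 0 of the 39 passed (background 0% higher and 0.0148% lower) and 4 were higher and 1 lower at an unadjusted p under 0.05. A rise in Alb-R3 and none in Alb-Cre is therefore not shown to differ between the genotypes for any single gene.

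After CCl4, Alb-R3 hepatocytes had higher mean log2 values than Alb-Cre hepatocytes for all 39 genes, but 0 passed (limma; background 0.084% higher and 0.0889% lower, 0.173% in either direction). The median log2 difference was 0.60, against -0.00083 over all tested genes, and 0.24 without Alb-R3 CCl4 replicate 1, where 31 of 39 were positive and 0 passed (background 0.0741% higher and 0.114% lower). At an unadjusted p under 0.05 there were 12 genes, and 4 without that library, while 7.77% of all tested genes had such a p with all libraries. The 12 were led by Ifi27l2a at 2.06 ± 0.61 (limma adjusted p = 0.368) and Oas1g at 2.44 ± 0.77 (0.405). In 8 genes the 3 Alb-R3 values lay above the 3 Alb-Cre values (background 6.16%): Oas1g, Dhx58, Cmpk2, Bst2, Parp14, Ifi27, Ifi27l2a and Ifi44. In 0 genes did they lie below (background 5.86%).

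After oil, 0 of the 39 genes passed between the genotypes with all libraries (limma; background 0.0988% higher and 0.109% lower, 0.207% in either direction), and the median log2 difference was 0.06. An unadjusted p under 0.05 was found for 6.49% of all tested genes and for 2 of the 39. These were Oas1a, lower in Alb-R3 by a log2 difference of -1.77 ± 0.48 (limma adjusted p = 0.264), and Mx2, higher in Alb-R3 by 1.42 ± 0.51 (0.494). Mx2 had 337, 223 and 390 normalized counts in Alb-R3 oil libraries, against 110, 93 and 148 in Alb-Cre oil libraries. The groups did not overlap in either gene: in 2 of the 39, Mx2 and Tap1, the Alb-R3 libraries lay above (background 5.66%), and in 3, Oas1a, Trim25 and Isg20, below the Alb-Cre libraries (background 5.63%). Alb-R3 CCl4 replicate 1 enters this comparison only through the shared estimate of spread. Without it both genes passed, Oas1a with the same -1.77 (SE 0.34, adjusted p = 0.0378) and Mx2 with 1.42 (SE 0.25, 0.0256), where the background was 0.198% higher and 0.306% lower. The comparisons of Alb-R3 CCl4 with Alb-R3 oil and of Alb-R3 oil with Alb-Cre oil share the Alb-R3 oil libraries, in which Oas1a was low.

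The interferon genes themselves gave almost no signal. Of the 10 listed (Ifnb1, Ifng, Ifnl2, Ifnl3, Ifna1, Ifna2, Ifna4, Ifna5, Ifnk and Ifne), 8 were listed at 0 in all 12 libraries. Ifng had 1.18 normalized counts in the library labelled Alb-R3 oil replicate 3 and 0 elsewhere, and Ifnk had 0.972 and 0.831 in Alb-Cre CCl4 replicates 1 and 3. The receptors were tested as 6 genes, of which 3 rose and 1 fell with CCl4 in Alb-R3 (background 10.9% higher and 6.92% lower). In Alb-Cre 1 of the receptors rose and 1 fell (background 3.46% higher and 0.988% lower). Ifnar2, a chain of the type I receptor and the most abundant of them at 39 ± 6.48 FPKM over the 12 libraries, fell with CCl4 in both genotypes. It had 1574, 1674 and 1540 normalized counts in Alb-R3 CCl4 libraries, 1631, 1583 and 1681 in Alb-Cre CCl4 libraries, 2611, 2473 and 2634 in Alb-R3 oil libraries and 2309, 2123 and 2860 in Alb-Cre oil libraries. The libraries given CCl4 were all below those given oil, by a log2 fold change of -0.69 ± 0.14 in Alb-R3 (limma adjusted p = 0.00451) and -0.56 ± 0.14 in Alb-Cre (0.0343). These calls were lost in Alb-R3 when each library was scaled to its total without mitochondrial genes and with the FPKM columns, and in Alb-Cre under 13 of 24 alternatives. Its partner Ifnar1 had 0.21 ± 0.18 in Alb-R3 and did not pass.

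Ifngr1, the ligand-binding chain of the type II receptor, rose in both genotypes. It had 739, 805 and 694 normalized counts in Alb-R3 CCl4 libraries, 496, 930 and 819 in Alb-Cre CCl4 libraries, 367, 466 and 287 in Alb-R3 oil libraries and 397, 348 and 381 in Alb-Cre oil libraries. The log2 fold changes were 1.02 ± 0.23 in Alb-R3 (limma adjusted p = 0.00868) and 0.95 ± 0.23 in Alb-Cre (0.0328), and the Alb-Cre call was lost under 8 of 24 alternatives. In Alb-R3 the chains of the type III receptor also rose: Il10rb by 1.13 ± 0.25 (limma adjusted p = 0.00757) and Ifnlr1 by 3.09 ± 0.71 (0.00969). Ifnlr1 was near the limit of detection, with 22.8, 15.4 and 13.3 normalized counts in Alb-R3 CCl4 libraries against 3.29, 1.14 and 0 in Alb-R3 oil libraries.

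Of the 13 genes of interferon signalling and its control, 1 rose (Irf8) and 1 fell (Irf2) with CCl4 in Alb-R3 and 0 passed in Alb-Cre, where 1 had an unadjusted p under 0.05. Of all tested genes 10.9% rose and 6.92% fell in Alb-R3, and 3.46% and 0.988% in Alb-Cre, where 17.1% had an unadjusted p under 0.05. The kinase gene Tyk2 had a log2 fold change of 0.07 ± 0.15 in Alb-R3. Irf8, a factor of myeloid cells, rose by 1.71 ± 0.45 (limma adjusted p = 0.0202), and Irf2, a repressor of interferon genes, fell (0.0401), with an interval of 2 SE around its log2 fold change from -1.61 to -0.38. Both calls were lost without Alb-R3 CCl4 replicate 1 (adjusted p = 0.0543 and 0.0929), and Irf2 passed under 9 of 24 alternatives only. Of 12 sensors and adaptors 11 were tested, and Tmem173, the adaptor of DNA sensing, rose by 2.14 ± 0.43 (limma adjusted p = 0.00455) and Tlr7, an endosomal RNA receptor of immune cells, by 2.17 ± 0.62 (0.0285) in Alb-R3. The Tlr7 call was lost without Alb-R3 CCl4 replicate 1 (1.49, adjusted p = 0.0938). In Alb-Cre 0 of the 11 passed, and 1 had an unadjusted p under 0.05 (background 17.1%).

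A list of 30 further interferon-induced genes gave 5 that rose and 1 that fell with CCl4 in Alb-R3, and 2 that rose in Alb-Cre, with medians of 0.37 and 0.07. The background was 10.9% of all tested genes higher and 6.92% lower in Alb-R3, and 3.46% and 0.988% in Alb-Cre. Cxcl10, a chemokine that draws T cells, rose in both, by 2.13 ± 0.31 in Alb-R3 (limma adjusted p = 0.000532) and by 1.35 ± 0.31 in Alb-Cre (0.0242). It had 282, 112 and 180 normalized counts in Alb-R3 CCl4 libraries, 98.2, 133 and 116 in Alb-Cre CCl4 libraries, 41.6, 41.9 and 36.7 in Alb-R3 oil libraries and 40.9, 50.5 and 41.8 in Alb-Cre oil libraries. No library given oil reached the lowest given CCl4. In Alb-R3, Ifitm1, which blocks entry of virus, rose by 2.20 ± 0.36 (limma adjusted p = 0.00114), Trim30a by 2.02 ± 0.45 (0.00815), Samd9l by 0.75 ± 0.20 (0.018) and Sp100 by 1.52 ± 0.42 (0.024), and the GTPase Iigp1 fell by 0.64 ± 0.19 on the log2 scale (0.0352). In Alb-Cre, Pml, the scaffold of nuclear bodies, rose by 0.76 ± 0.15 (limma adjusted p = 0.00855). The Cxcl10 call in Alb-Cre held under 18 of 24 alternatives, and that of Samd9l under 20. The calls of Sp100 and Iigp1 were lost without Alb-R3 CCl4 replicate 1 (adjusted p = 0.0768 and 0.0863).

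MHC class I molecules receive the peptides that the immunoproteasome cuts. Of 15 genes of MHC class I and peptide loading, 0 rose and 2 fell with CCl4 in Alb-R3, and 0 passed in Alb-Cre, where 1 was higher and 3 lower at an unadjusted p under 0.05. The median of the 15 was -0.20 in each genotype. Of all tested genes 10.9% rose and 6.92% fell in Alb-R3, and 3.46% and 0.988% in Alb-Cre, where 17.1% had an unadjusted p under 0.05. H2-K1, a class I heavy chain, had 19120, 25510 and 21940 normalized counts in Alb-R3 CCl4 libraries, 27400, 24020 and 27720 in Alb-Cre CCl4 libraries, 38820, 38110 and 44670 in Alb-R3 oil libraries and 41680, 38880 and 37720 in Alb-Cre oil libraries. All CCl4 libraries were below all oil libraries, by a log2 fold change of -0.88 ± 0.22 in Alb-R3 (limma adjusted p = 0.014) and -0.58 ± 0.22 in Alb-Cre (0.175). H2-T23, a non-classical class I chain, fell by 0.62 ± 0.18 on the log2 scale in Alb-R3 (0.0333). The light chain gene B2m had -0.73 ± 0.25 in Alb-R3, which did not pass (0.0601). Both calls were lost with quantile normalization and when the library labelled Alb-R3 oil replicate 3 was left out, H2-T23 passed under 12 of 24 alternatives, and the H2-K1 call also when libraries were scaled to the total without mitochondrial genes. The MHC class II list, which antigen-presenting cells use, had 1 of 8 genes rising in Alb-R3, the lysosomal protease Ctss, by 2.61 ± 0.50 (limma adjusted p = 0.00358), and 0 in Alb-Cre.

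Summed markers of Kupffer cells and macrophages, and those of monocytes, were higher in each Alb-R3 CCl4 library than in any other library. Markers of other cell types did not all follow this order. Endothelial sums overlapped between the genotypes after CCl4, and B cell sums were lower after CCl4 than after oil in both genotypes. In bulk RNA more cells of a type and more RNA per cell cannot be told apart. With CCl4, 10.9% of all tested genes rose and 6.92% fell in Alb-R3, and 9.63% and 6.05% without Alb-R3 CCl4 replicate 1. In Alb-Cre 3.46% rose and 0.988% fell, and 17.1% had an unadjusted p under 0.05. All 14 Kupffer cell and macrophage markers rose with CCl4 in Alb-R3, and 11 did without Alb-R3 CCl4 replicate 1, whereas 0 passed in Alb-Cre, where 1 was higher and 1 lower at an unadjusted p under 0.05. Their summed level was 368, 80.1 and 110 FPKM in Alb-R3 CCl4 libraries, 47.2 to 61.3 FPKM in Alb-Cre CCl4 libraries, 22.5 to 28.1 FPKM in Alb-R3 oil libraries and 34.3 to 66 FPKM in Alb-Cre oil libraries. Within oil, the order of the genotypes was thus the reverse of that after CCl4. Of 7 monocyte markers 4 rose in Alb-R3 (1 without Alb-R3 CCl4 replicate 1), and they summed to 29, 6.95 and 10.5 FPKM in Alb-R3 CCl4 libraries, 5.13 to 6.37 in Alb-Cre CCl4 libraries, 3.09 to 3.5 in Alb-R3 oil libraries and 2.75 to 4.64 in Alb-Cre oil libraries. Of 6 tested neutrophil markers 1, Mmp8, rose in Alb-R3, and 0 did without Alb-R3 CCl4 replicate 1. The neutrophil markers summed to 56.2 FPKM in Alb-R3 CCl4 replicate 1 and to between 0.349 and 2.12 FPKM in each of the other 11 libraries. Of the 8 listed neutrophil markers, Ly6g and Mpo were at 0 in that library. With CCl4 in Alb-R3, 5 of the 6 tested had positive log2 fold changes, with a median of 2.70 (0.80 without that library).

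Lymphoid and dendritic markers were low throughout. The 6 plasmacytoid dendritic cell markers summed to 0.224 to 0.525 FPKM in Alb-R3 CCl4 libraries, 0.109 to 0.188 in Alb-Cre CCl4 libraries, 0.00841 to 0.0305 in Alb-R3 oil libraries and 0.00739 to 0.0418 in Alb-Cre oil libraries. Siglech, Klk1, Cd300c and Pacsin1 were at 0 in Alb-R3 oil, Klk1, Cd300c, Spib and Pacsin1 in Alb-Cre oil, and Cd300c in Alb-Cre CCl4. Of the 4 tested, 3 rose in Alb-R3 (2 without Alb-R3 CCl4 replicate 1). Conventional dendritic cell markers summed to 0.879 to 4.35 FPKM over all libraries, T cell markers to 0.641 to 1.5, NK cell markers to 0.0316 to 0.335 and B cell markers to 0.37 to 6.86 FPKM. Among these, 2 of 6 tested NK cell markers rose in Alb-R3 (1 without Alb-R3 CCl4 replicate 1), and 1 of 6 B cell markers fell in each genotype. For these lists and the next, 10.9% of all tested genes rose and 6.92% fell in Alb-R3, and 3.46% and 0.988% in Alb-Cre. In Alb-R3, 8 of 10 endothelial markers and 8 of 10 stellate cell and fibroblast markers rose (9 and 10 without Alb-R3 CCl4 replicate 1), and in Alb-Cre 4 of 10 stellate cell and fibroblast markers rose. Endothelial sums were 43.1 to 88.5 FPKM in Alb-R3 CCl4 libraries, 55 to 88.1 in Alb-Cre CCl4 libraries, 24.3 to 26.2 in Alb-R3 oil libraries and 46.5 to 58.5 in Alb-Cre oil libraries. After oil, 7 of 10 endothelial and 8 of 10 stellate cell and fibroblast markers had all 3 Alb-R3 values under the 3 Alb-Cre values (background 5.63%). The median log2 differences were -1.05 and -1.20 after oil, and -0.01 and 0.18 after CCl4. Endothelial and stellate sums were lower in Alb-R3 CCl4 replicate 1 than in its mates, with stellate sums of 16.9 FPKM against 48.4 and 60.9 FPKM. Cholangiocyte markers summed to 148, 35.1 and 15.1 FPKM in Alb-R3 CCl4 libraries, 7.54 to 16.4 in Alb-Cre CCl4 libraries, 1.92 to 2.58 in Alb-R3 oil libraries and 1.56 to 2.1 in Alb-Cre oil libraries. The part of these cells in the changes of the 39 genes was not tested.

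**Figure D4:**
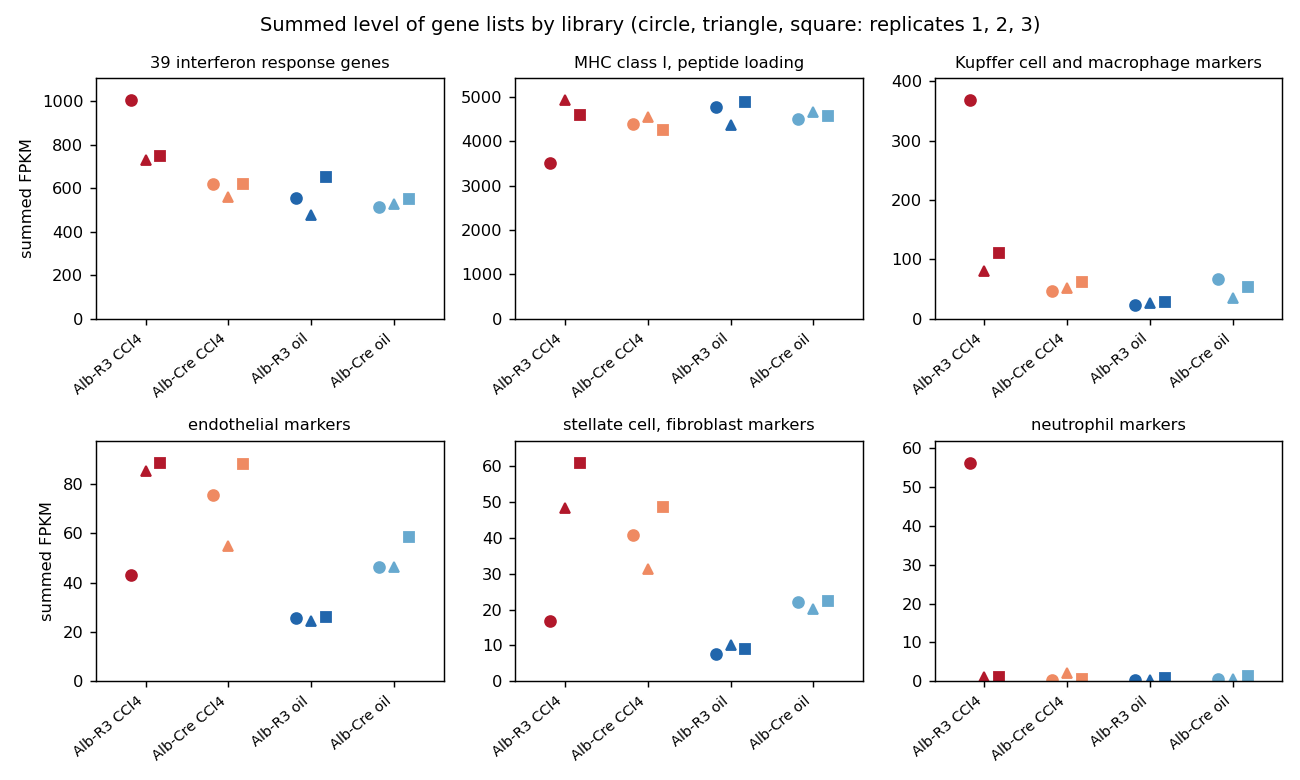
Summed FPKM of 6 gene lists (panels) by group, from left to right Alb-R3 CCl4, Alb-Cre CCl4, Alb-R3 oil and Alb-Cre oil; each point is a library, with circles, triangles and squares for replicates 1, 2 and 3. Alb-R3 CCl4 replicate 1 is the highest circle for the 39 genes (1004 FPKM), macrophage markers (368 FPKM) and neutrophil markers (56.2 FPKM), and the lowest of its group for MHC class I, endothelial and stellate markers.

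Summed over the 39 genes, the level was 1004, 728 and 750 FPKM in Alb-R3 CCl4 libraries, 620, 560 and 618 FPKM in Alb-Cre CCl4 libraries, 553, 475 and 650 FPKM in Alb-R3 oil libraries and 513, 525 and 549 FPKM in Alb-Cre oil libraries. The 3 Alb-R3 CCl4 libraries were thus above the other 9 on this scale, also with replicate 1 set aside. Bst2 and Ifi27 were the largest parts of the sum. On FPKM the median log2 fold change of all tested genes with CCl4 was itself 0.17 in Alb-R3 and 0.15 in Alb-Cre. In normalized counts the highest Bst2 value, 6526, was in the library labelled Alb-R3 oil replicate 3. For the OAS family the sums were 38.5, 15.3 and 15.3 FPKM in Alb-R3 CCl4 libraries, 13.7, 11.1 and 12.2 in Alb-Cre CCl4 libraries, 9.83, 6.7 and 9.83 in Alb-R3 oil libraries and 10.1, 10.3 and 8.6 in Alb-Cre oil libraries. The IFIT sums overlapped between all groups, at 6.01 to 9.3 FPKM in Alb-R3 CCl4 libraries, 3.83 to 6.36 in Alb-Cre CCl4 libraries, 5.91 to 6.73 in Alb-R3 oil libraries and 5.25 to 8.3 in Alb-Cre oil libraries. Among the 14 genes with a promoter window that held the core of the response element 4 rose with CCl4 in Alb-R3, with a median log2 fold change of 0.47. Among the 15 without the core in a window 3 rose, with a median of 0.54. Of all tested genes 10.9% rose. The 4 include the near copies Oas1a and Oas1g, and the calls of Oas1g, Gbp2 and Gbp3 were lost without Alb-R3 CCl4 replicate 1.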

How the data were processed

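For every gene and library the table deposited by the authors holds a normalized count, which is a signal they scaled, beside an FPKM, as its headers name them. Kallisto 0.44.0, edgeR and the build GRCm38.p6 appear in the submitters' processing notes, with no role given. Values were used as deposited. Low values were whole multiples of 1 read in only 69.8% to 74.6% of cases (tolerance 0.02), so no count test was run. The 20244 genes that reached 1 normalized count in 3 or more libraries entered limma (version 3.58.1, R version 4.3.3, trend on), fitted on log2(normalized count + 1), in 1 model of the 4 groups with 8 residual degrees of freedom. Benjamini-Hochberg adjustment covered all tested genes in each of 5 comparisons, with a threshold of 0.05. The added 1 makes fold changes of low genes smaller than they are. The fit was tested on simulated data. Totals of normalized counts were 27200000 to 38800000 per library, which limits the precision of low genes. FPKM served for levels between genes. Symbols and positions are those of GENCODE M21 (GRCm38), matched for 35574 rows and not for 135. Library pairs within groups differed by more than counting noise. Printed per library were genes past the threshold, further genes of smallest p until 10 were shown, and the 5 with the highest FPKM; Irf1 and Mx2 were added after their values were seen. The genes and lists were chosen with earlier results of these data known. Alternatives tried are given in the closing section. No protein sequences were used here.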

Additional observations from a re-analysis of the deposited data

How the results depend on the processing

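For CCl4 against oil in Alb-R3 (8 genes passing, median 0.54), quantile normalization gave 4 genes and fitting only the groups compared 4. The FPKM columns gave 16 and scaling to the total without mitochondrial genes 22. Of the 8 genes, only Oas1a, Ifit2 and Ifi27l2a passed with quantile normalization. Of all tested genes 10.9% rose and 6.92% fell as reported, 8.51% and 8.1% with quantile normalization, 6.6% and 3.47% with only the groups compared, 15.4% and 2.69% with FPKM, and 22.9% and 2.48% with the total without mitochondrial genes. Leaving out 1 library at a time gave 5 to 11 genes and medians from 0.17 (without Alb-R3 CCl4 replicate 1) to 0.75 (without Alb-R3 CCl4 replicate 3). Over these fits 6.93% to 11.3% of all tested genes rose and 3.54% to 7.34% fell. The median was 0.95 with the total without mitochondrial genes, 0.80 with FPKM and 0.26 with library weights. The first of these scalings shifted the median of all genes by 0.37 and FPKM by 0.16; relative to all genes the medians were 0.59 and 0.63. In Alb-Cre, quantile normalization gave 1 gene (Ifit3b, lower), FPKM 1 (Dhx58, higher), library weights 3 (Cmpk2, Ifit3 and Ifit3b) and leaving out 1 library 0 to 1 (Ifit3, without Alb-Cre oil replicate 3). In that comparison 2.7% of all tested genes rose and 1.16% fell with quantile normalization, and 5.41% and 0.435% with FPKM. The shares were 8.18% and 5.17% with library weights, and 2.65% and 0.563% without Alb-Cre oil replicate 3. Between the genotypes after CCl4 the median of 0.60 was 0.25 with library weights and, leaving out 1 library, 0.24 (without Alb-R3 CCl4 replicate 1) to 0.83. After oil, library weights gave 2 genes, Mx2 and Oas1a (background 1.33% higher and 1.94% lower). Leaving out Alb-R3 CCl4 replicate 1 gave the same 2 (range 0 to 2 on leaving out 1 library). The interaction gave 1 gene, Oas1a, with library weights (background 0.133% higher and 0.0939% lower). The causes were not tested. Replicate numbers did not pair the libraries (correlations of deviations from -0.186 to 0.196). With the replicate number as a block, 8 genes passed in Alb-R3, 7 higher and Irf1 lower (background 9.77% higher and 5.5% lower). Oas1a and Ifit2 passed under all 24 alternatives.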
